A study of Mus musculus with 12 samples.

Results

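The genes of the mouse proteasome were followed in activated B cells that had lost Pdap1, and in control B cells. A gene was a member if GENCODE M21 annotates it as protein_coding and its symbol begins with Psma, Psmb, Psmc, Psmd, Psme, Psmf or Psmg and a number, or is Pomp. This gave 51 members among 55536 features in the count table, of which 22028 are protein_coding. A further 4 pseudogenes that match the pattern were left out. Expression played no part in the choice. RNA was sequenced from B cells of C57BL/6 mice, 3 that carried 1 Cre allele alone (control) and 3 that carried it with 2 floxed Pdap1 alleles, Pdap1F/F (Pdap1-deficient). Cre was active in the B lineage, so that floxed Pdap1 was deleted there and not in other cells. Cells of each mouse were cultured for 48 h in 1 of 2 ways. LPS with IL-4 (LPS-IL-4) drives class switching towards IgG1, and LPS with BAFF and TGFβ (LPS-BAFF-TGFβ) drives it towards IgG2b. The 12 libraries form 4 groups of 3, and both cultures of a mouse carry its number. The labels speak of cultured splenocytes, the study's methods describe splenic B cells isolated by removing CD43+ cells, and the labels also name CH12, a B lymphoma line, for every sample. They give no age for the mice.

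The proteasome is the protease that degrades most proteins marked with ubiquitin. Its 20S core is a stack of rings, with alpha subunits (Psma genes) outside and beta subunits (Psmb genes) inside, and the proteolytic sites lie on Psmb5, Psmb6 and Psmb7. In lymphocytes, and in other cells exposed to interferon, the immunosubunits Psmb8, Psmb9 and Psmb10 take the places of Psmb5, Psmb6 and Psmb7 in newly built cores and change which peptides are made for MHC class I. The 19S regulatory particle, made of ATPases (Psmc genes) and other subunits (Psmd genes), recognises and unfolds the substrate, and the 11S particle of Psme1 and Psme2 is another cap. The chaperones Psmg1 to Psmg4 and Pomp help to build the core, and Psmd5, Psmd9 and Psmd10 help to build the 19S base.

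Libraries held 9386667 to 15869143 counts in LPS-IL-4 cultures. LPS-BAFF-TGFβ libraries spanned 4579793 to 69500640 counts, and members took between 0.551% and 0.765% of a library. Values per library are given as CPM, counts scaled to library size by edgeR's TMM method. The libraries of 2 mice stood apart by depth or by marker genes. The LPS-BAFF-TGFβ library of control mouse 1 held 69500640 counts, against 8035069 and 8092103 in control mice 2 and 3, and 35 of the 48 members tested were above both of these in it. Their median distance from the mean of mice 2 and 3, on the scale of log2(CPM + 0.5), was 0.34. In Pdap1-deficient mouse 2, the 7 myeloid marker genes summed to 301 CPM in the LPS-IL-4 culture and to 531 CPM in the LPS-BAFF-TGFβ culture. Pdap1-deficient mouse 3 was at 32.0 and 75.1 CPM, also above each control, and mouse 1 at 6.77 and 11.8 CPM. Controls were at 5.04 to 13.6 and at 16.3 to 24.2 CPM. A further library, that of Pdap1-deficient mouse 1 with LPS-BAFF-TGFβ, also differed from its group. Its chi-square per gene, a distance between 2 libraries, was 37.6 and 68.2 against Pdap1-deficient mice 2 and 3, and 13.1 between these. Its TMM factor was 0.904, against 1.06 and 1.03 in them and 0.907 in the LPS-BAFF-TGFβ library of control mouse 1. The B cell markers, all 8 above 1 CPM in each library, summed to between 2529 and 3706 CPM, T cell markers to at most 38.4 CPM and NK cell markers to at most 3.41 CPM. The 5 plasma cell markers summed to 622 to 674 CPM in LPS-IL-4 controls and to 747 to 892 CPM in Pdap1-deficient mice, without overlap, and to 449 to 527 against 475 to 527 CPM with LPS-BAFF-TGFβ. Among them Prdm1, a regulator of plasma cell formation, was at 14.1 to 19.98 CPM against 50.6 to 71.2 CPM with LPS-IL-4, while Sdc1, a surface marker of plasma cells, was at 6.42 to 9.9 against 3.95 to 5.84 CPM. The 5 erythroid markers summed to 8.18 to 11.04 against 9.73 to 23.7 CPM with LPS-IL-4 and to 9.69 to 10.6 against 11.3 to 20.2 CPM with LPS-BAFF-TGFβ. The part of plasma cell and erythroid RNA in the genotype differences was not tested. The deleted gene Pdap1 was at 92.98, 91.4 and 97.8 CPM in the LPS-IL-4 libraries of control mice 1, 2 and 3 and at 23.3, 27.2 and 29.9 CPM in those of Pdap1-deficient mice 1, 2 and 3. With LPS-BAFF-TGFβ it was at 199, 80.3 and 100.3 CPM in controls and at 26.4, 26.01 and 22.98 CPM in Pdap1-deficient mice. The genotypes did not overlap in either stimulation. In bulk RNA, fewer cells of a type cannot be told apart from less RNA per cell.

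Of the 51 members, 48 passed the filter on low counts in each comparison. The other 3 were Psma8, a core subunit of male germ cells, Psmb11, the catalytic subunit of thymic cortical epithelium, and Psmd10 (gankyrin, a chaperone of the 19S base). Psma8 reached at most 1.03 CPM and Psmb11 at most 0.494 CPM in a library. Psmd10 had 0 counts in all 12 libraries, which allows a level of up to 0.0432 CPM in the deepest library and 0.655 CPM in the shallowest by counting error alone. No near-identical transcript and no overlapping exon of another gene was found for it, so its 0 is given as listed and not as absence of the RNA. Psmc3ip matches the pattern by its symbol but encodes a factor of meiotic recombination, and it belongs to none of the classes described.

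Levels of different genes were compared as CPM divided by the exon length in kb (CPM per kb). The highest mean over the 12 libraries was that of the alpha ring subunit Psma6, at 212 CPM per kb, ahead of the 19S ATPase Psmc1 at 114 and the beta ring subunit Psmb2 at 111. The ranges of Psmc1 and Psmb2 overlapped in each group but the LPS-IL-4 controls. The 7 alpha ring genes, whose products are present in equal number in a core, ranged from 13.2 CPM per kb (Psma3) to 212 (Psma6), and the 6 ATPases of the 19S base from 32.9 (Psmc2) to 114 (Psmc1). The immunosubunits lay between 22.9 and 33.5 CPM per kb, and Psmb5, Psmb6 and Psmb7 between 20.6 and 60.5. The assembly genes of the core ranged from 2.27 (Psmg3) to 29.2 (Psmg1). Exon length was the union of all annotated exons of a gene, which lowers the value of genes with long minor transcripts. For 11 members another gene's transcript matched over at least 300 bases at 97% identity or more, and their counts are uncertain to that extent. Among them are Psma3 (665 bases at 100% identity), the lowest alpha ring gene, and Psmc1 (728 bases at 97.1%), the highest ATPase. Psmb5 (796 bases at 98.9%) is another, each matching a processed pseudogene. Psme2 and Psme2b share 794 bases at 99.4% identity, so that counts of either may hold reads of the other.

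**Figure D1:**
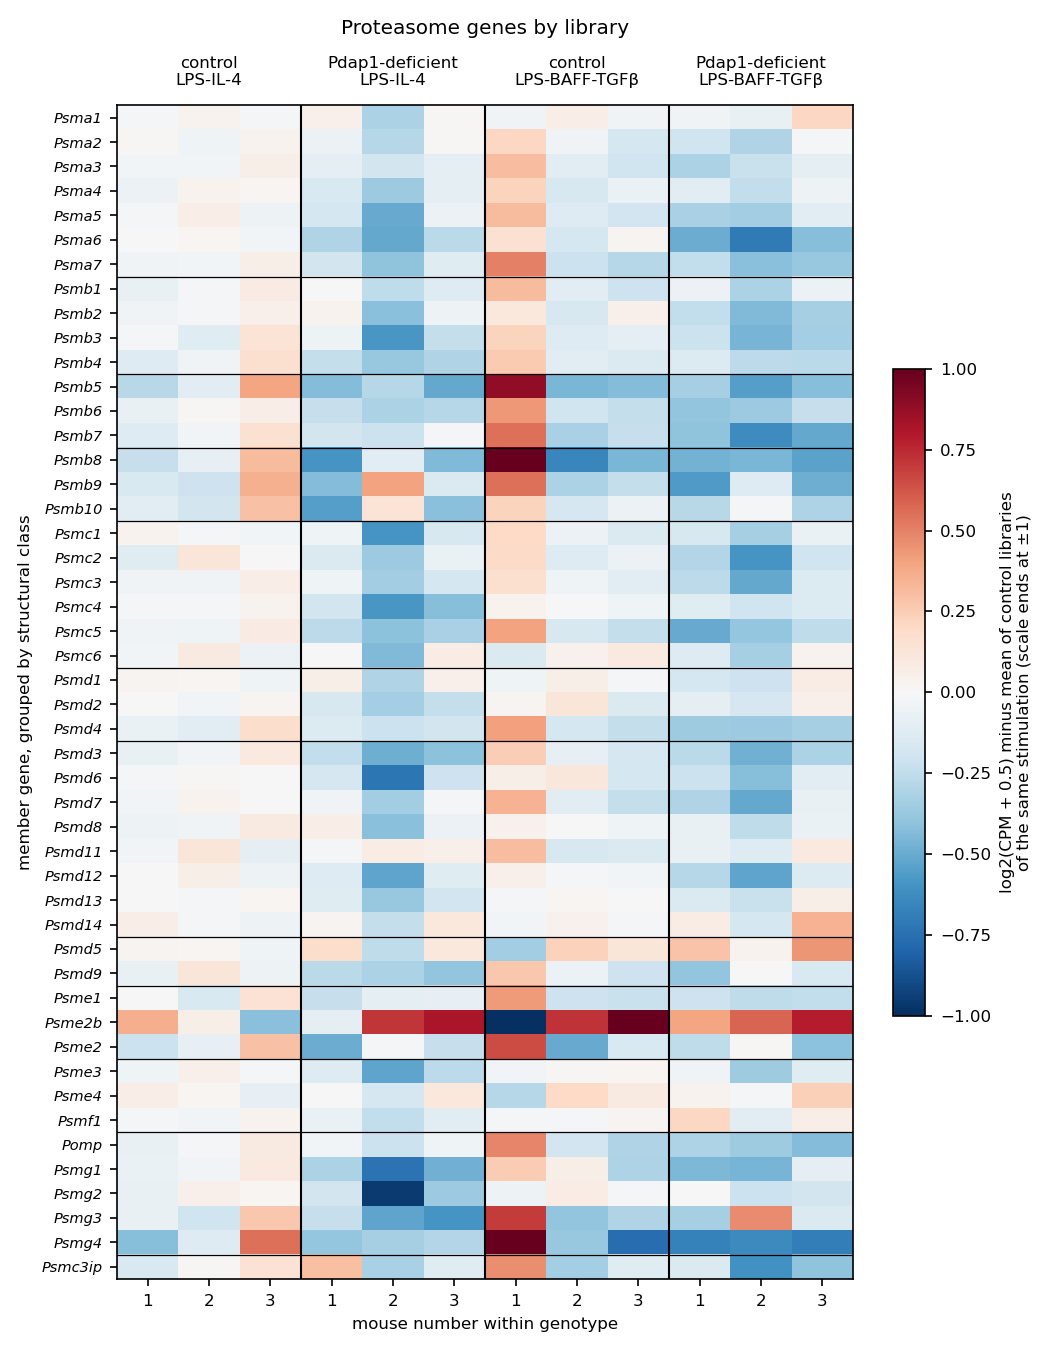
Rows are the 48 tested members grouped by structural class and columns the 12 libraries, coloured by log2(CPM + 0.5) minus the mean of the 3 control libraries of the same stimulation, with colours ending at −1 and 1. Blue prevails in the 6 Pdap1-deficient columns, most in mouse 2, while in the column of control mouse 1 with LPS-BAFF-TGFβ 11 of 48 members lie below the control mean.

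The first comparison asks whether proteasome transcripts differ between genotypes in LPS-IL-4 cultures. Of 48 members, 45 had a fitted level below control in Pdap1-deficient cells, where 47.3% of all genes tested did, and the median log2 fold change of the members was −0.22 (85.6% of control) against 0.02 for all genes. None of the 48 passed an adjusted p of 0.05 in edgeR's quasi-likelihood test, while 4.92% of all genes tested passed it. At an unadjusted p under 0.05, 17 members were lower and 0 higher, and 11.7% of all genes were lower. In 24 members each Pdap1-deficient library was below each control library, and 16.1% of all genes showed this. DESeq2's Wald test, at an adjusted p under 0.05, called 5 members lower (Psmg1, Psma6, Psmc4, Psmc5 and Psmd3) and 5.09% of all genes.

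The median member lay below the control mean in each Pdap1-deficient mouse, by differing amounts. The median member was at −0.14, −0.34 and −0.13 log2 units from the control mean in Pdap1-deficient mice 1, 2 and 3, with 41, 44 and 39 of 48 members below it. Control mice 1, 2 and 3 were at −0.04, −0.02 and 0.05. The mouse with the highest sum of myeloid marker genes thus had the lowest median, and the part of those cells in it was not tested. Without this mouse the median was −0.13, 38 of 48 members were lower, and edgeR called 7 of them, all lower: Psma6, Psmb6, Psmb10, Psmc4, Psmc5, Psmd3 and Psmg1. In that setting 4.49% of all genes were called lower. Without Pdap1-deficient mouse 1 it called 5 members, also lower, and 5.32% of all genes lower, and the median of the members was −0.26.

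All 14 subunits of the 20S core (the alpha ring and the constitutive beta ring) had fitted values below control with LPS-IL-4, with a median log2 fold change of −0.23. The alpha ring subunit Psma6 was at 242, 245 and 237 CPM in controls and at 195, 169 and 200.2 CPM in Pdap1-deficient mice. Its groups did not overlap, and its log2 fold change was −0.37 (SE 0.10, adjusted p = 0.0711 in edgeR). Psma1 was the alpha subunit nearest to control, at −0.08 (SE 0.12). Of the non-catalytic beta subunits, Psmb4 had the lowest fitted value, −0.32 (SE 0.11), and Psmb1 the highest, −0.14 (SE 0.11). Without Pdap1-deficient mouse 2, Psma1 was at 0.039 and Psmb1 at −0.058.

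The catalytic subunit Psmb5, which carries the chymotrypsin-like site, was at 22.4, 25.2 and 36.1 CPM in controls and at 20.2, 22.4 and 19.03 CPM in Pdap1-deficient mice. The Pdap1-deficient values lay below the lowest control, mouse 2 by little, and the log2 fold change was −0.45 (SE 0.17, adjusted p = 0.143 in edgeR). Psmb6, with the caspase-like site, was at 123, 130.0 and 135 CPM against 110.0, 104 and 106 CPM. These groups did not overlap either, and the log2 fold change was −0.29 (SE 0.10, adjusted p = 0.104 in edgeR). Psmb7, with the trypsin-like site, was at 66.3, 70.9 and 80.6 CPM against 63.5, 62.3 and 71.7 CPM, with overlapping groups and a log2 fold change of −0.15 (SE 0.11), which was −0.098 without Pdap1-deficient mouse 2.

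In the 19S particle, 16 of 17 subunits had fitted values below control, with a median of −0.20, and the groups of 10 of them did not overlap. Among the ATPases, which unfold the substrate, Psmc4 had the lowest value at −0.40 (SE 0.12, adjusted p = 0.0801 in edgeR) and Psmc6 the highest at −0.11 (SE 0.14). In the rest of the base, Psmd2, a scaffold beside Psmd1, was at −0.25 (SE 0.10) and Psmd1 at −0.06 (SE 0.12). In the lid, Psmd3 was at −0.39 (SE 0.11, adjusted p = 0.064 in edgeR), and Psmd11 was the only 19S subunit with a fitted value above control, at 0.02 (SE 0.10). Psmd14, the deubiquitinase of the lid, was at −0.04 (SE 0.12). Without Pdap1-deficient mouse 2, Psmc6, Psmd1 and Psmd14 were at 0.04, 0.061 and 0.069.

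The assembly chaperones of the core had the lowest median of the classes, −0.48 over 5 genes. Without Pdap1-deficient mouse 2 this order did not hold. The immunosubunits then had a median of −0.50, and all 5 genes were above it, with Psmg3 the lowest at −0.42. Psmg1 was at 43.6, 44.7 and 48.9 CPM in controls and 36.6, 27.1 and 32.7 CPM in Pdap1-deficient mice. It had the smallest adjusted p of the members, with a log2 fold change of −0.52 (SE 0.13, adjusted p = 0.052 in edgeR), or 69.9% of control. Its partner Psmg2 was at 51.4, 56.2 and 54.8 CPM against 47.5, 27.6 and 41.98 CPM, with a log2 fold change of −0.48 (SE 0.18), which was −0.27 without Pdap1-deficient mouse 2. The other chaperone pair had low levels. Psmg3 was at 7.0, 6.38 and 9.02 CPM against 6.22, 4.99 and 4.76 CPM, a log2 fold change of −0.49 (SE 0.21), and Psmg4 at 6.42, 8.0 and 13.1 CPM against 6.61, 6.87 and 7.08 CPM, a log2 fold change of −0.43 (SE 0.25). The groups of Psmg1, Psmg2 and Psmg3 did not overlap, and those of Psmg4 did. Pomp, which acts late in core assembly, was at 107, 110.4 and 119.7 CPM against 109.9, 96.6 and 109 CPM, a log2 fold change of −0.10 (SE 0.10) with overlapping groups, and −0.031 without that mouse. Of the 19S chaperones, Psmd9 was at −0.34 (SE 0.11) and Psmd5 at 0.01 (SE 0.13), the latter at 0.15 without it.

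For the immunosubunits the spread within a genotype was wide. Psmb8 was at 84.00, 93.1 and 123 CPM in controls and at 65.4, 91.2 and 72.5 CPM in Pdap1-deficient mice, Psmb9 at 77.9, 74.8 and 111 CPM against 63.8, 115 and 78.4 CPM, and Psmb10 at 66.2, 62.95 and 88.1 CPM against 48.8, 78.8 and 53.5 CPM. In each of these genes control mouse 3 was the highest control and Pdap1-deficient mouse 2 the highest of its group, and the groups overlapped. Log2 fold changes were −0.40 (SE 0.16) for Psmb8, −0.05 (SE 0.22) for Psmb9 and −0.27 (SE 0.18) for Psmb10. Without Pdap1-deficient mouse 2 the value of Psmb10 was −0.50 and it passed in edgeR (adjusted p = 0.0407), and that of Psmb9 was −0.30. That mouse also had the highest level of Irf7, an interferon response factor, at 137 CPM against 18.7 to 70.0 CPM in the other LPS-IL-4 libraries, and its part in these values was not tested.

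The ratio of each immunosubunit to the subunit it replaces was taken on the CPM per kb scale. With LPS-IL-4 the ratio of Psmb8 to Psmb5 was 0.961 ± 0.0501 (SD, n = 3) in controls and 0.987 ± 0.113 (SD, n = 3) in Pdap1-deficient mice. Psmb9 was at 0.346 ± 0.0654 (SD, n = 3) of Psmb6 in controls and 0.413 ± 0.137 (SD, n = 3) in Pdap1-deficient mice. Psmb10 exceeded Psmb7 on this scale, with ratios of 1.78 to 2.19 in controls and of 1.5 to 2.54 in Pdap1-deficient mice. The excess rests on the exon lengths, 1705 bases for Psmb10 and 3421 for Psmb7. In CPM, without division by length, the levels of these genes overlapped in each genotype with LPS-IL-4. The genotypes overlapped for each pair in each stimulation. With LPS-BAFF-TGFβ the ratio of Psmb10 to Psmb7 was 0.993 to 1.40 in control mice, below each LPS-IL-4 control library, and 1.36 to 1.92 in Pdap1-deficient mice, which overlapped their LPS-IL-4 range. Across all 12 libraries the ratio of Psmb8 to Psmb5 stayed between 0.857 and 1.13. Its nearness to 1 rests on the exon lengths as well, 3381 bases for Psmb8 and 899 for Psmb5. In CPM, without division by length, Psmb8 was above Psmb5 in each library.

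**Figure D2:**
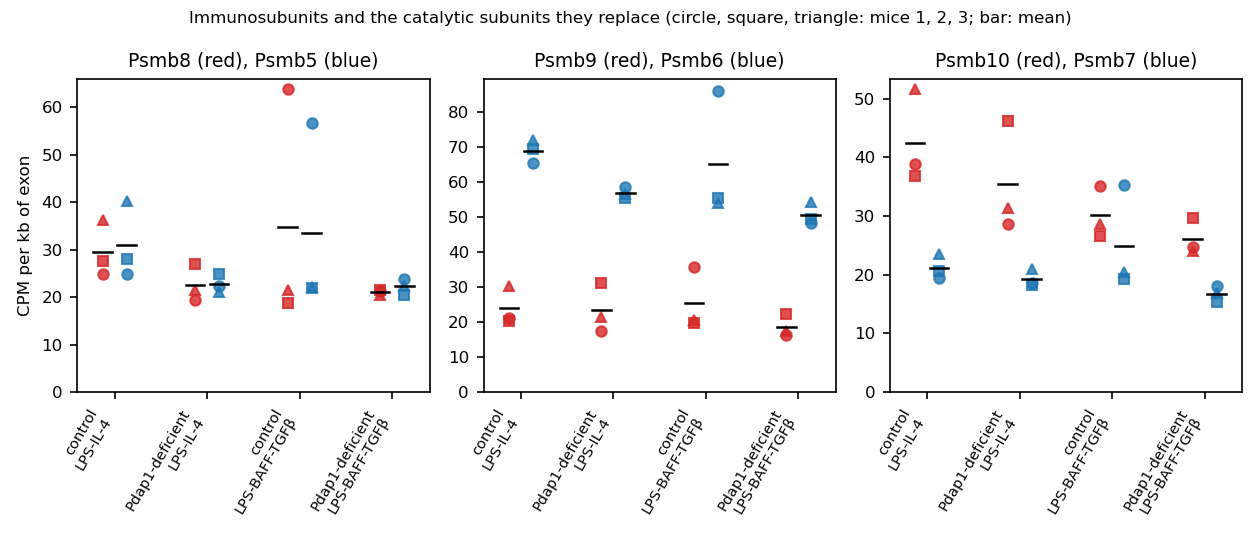
Levels in CPM per kb of exon of each immunosubunit (red) and the constitutive subunit it replaces (blue) in the 4 groups, with 1 symbol per mouse and the mean as a bar. Control mouse 1 with LPS-BAFF-TGFβ (circle) lies above the other 2 mice of its group for all 6 genes, most for Psmb8 and Psmb5.

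Among the activators, Psme1 was at 151, 135 and 166 CPM in LPS-IL-4 controls and 128, 140.3 and 142 CPM in Pdap1-deficient mice. Psme2 was at 44.7, 49.1 and 63.6 CPM against 36.7, 51.1 and 44.1 CPM. Both overlapped, with log2 fold changes of −0.15 (SE 0.10) and −0.27 (SE 0.15). Psme3, the nuclear member of the family, did not overlap, at 295, 315 and 302 CPM against 278, 210.2 and 254 CPM, with a log2 fold change of −0.30 (SE 0.12, adjusted p = 0.166 in edgeR). Psmf1, an inhibitor of the core, was at −0.15 (SE 0.11), and the nuclear activator Psme4 at −0.03 (SE 0.11). Without Pdap1-deficient mouse 2, Psme3, Psmf1 and Psme4 were at −0.19, −0.083 and 0.056.

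**Figure D3:**
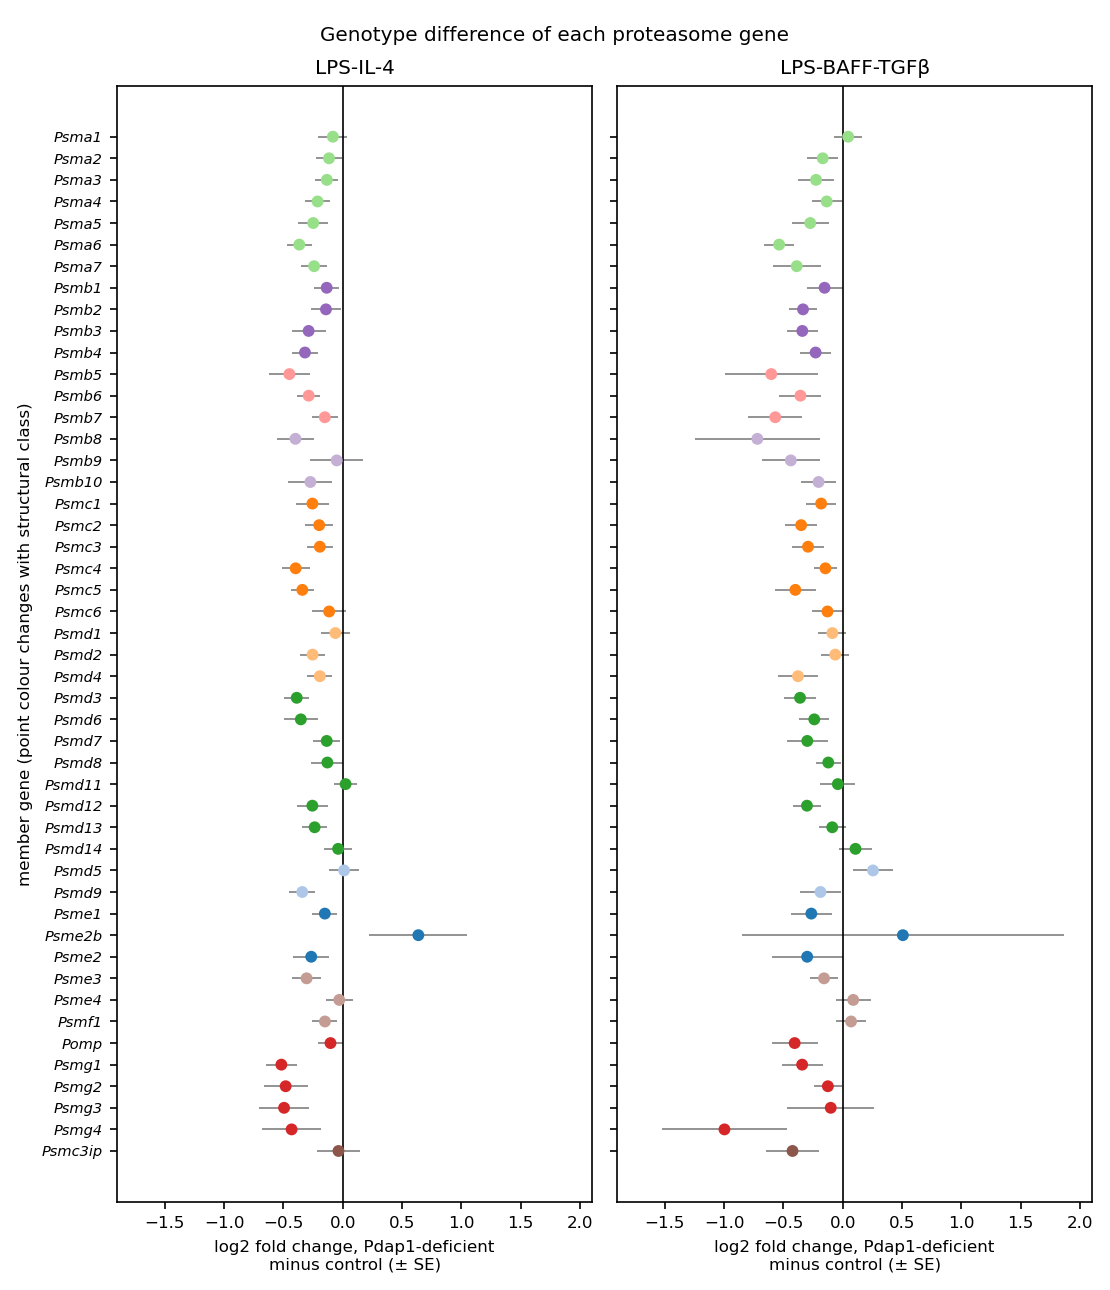
Log2 fold change of Pdap1-deficient over control cultures for each tested member with LPS-IL-4 (left) and LPS-BAFF-TGFβ (right), with bars of 1 SE and colours for the structural classes. Most points lie left of 0, 45 of 48 and 42 of 48, and the bars of Psmb5, Psmb8, Psmg4 and Psme2b are wide on the right.

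With LPS-BAFF-TGFβ, 42 of 48 members had fitted values below control, against 49.1% of all genes tested, and the median log2 fold change was −0.23 against 0.01 for all genes. None passed the adjusted p in edgeR, where 0.462% of all genes passed. At an unadjusted p under 0.05, 8 members were lower, and 5.28% of all genes. In 14 members the groups did not overlap, with Pdap1-deficient libraries lower, as in 9.08% of all genes. DESeq2 called 1 member lower, Psma6 (adjusted p = 0.0339), and 0.285% of all genes. The size of the median rested on the deep library of control mouse 1. Without it the median was −0.11 and 38 members were lower, and without Pdap1-deficient mouse 2 as well, a setting chosen after the data were seen, it was −0.07 with 37 lower. With only the library of Pdap1-deficient mouse 1 left out, the median was −0.25 with 42 lower. In that setting 0 members and 28 of 14654 genes passed in edgeR.

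Among the core subunits Psma6 was at 404, 323 and 371 CPM in controls and 258, 223 and 272 CPM in Pdap1-deficient mice. Its lowest control was above its highest Pdap1-deficient library, with a log2 fold change of −0.54 (SE 0.13, adjusted p = 0.179 in edgeR), which stayed between −0.62 and −0.47 with each library left out. Psmb6 was at 161, 104 and 101 CPM against 90.8, 92.5 and 102 CPM, with overlapping groups, a log2 fold change of −0.36 and −0.11 without control mouse 1. Psmb7 did not overlap, at 121, 65.7 and 70.02 CPM against 62.1, 52.9 and 57.6 CPM, a log2 fold change of −0.57 (SE 0.23, adjusted p = 0.443 in edgeR), but its value without control mouse 1 was −0.24. Psma1 was the 1 core gene with a fitted value above control, 0.05 (SE 0.12), and 0.022 without control mouse 1.

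For several genes the control mean was set by mouse 1. Psmb5 was at 50.8, 19.7 and 19.97 CPM in controls and at 21.5, 18.4 and 20.2 CPM in Pdap1-deficient mice. Psmb8 was at 216, 63.5 and 72.8 CPM against 71.9, 72.7 and 68.9 CPM. Control mice 2 and 3 lay within or close to the Pdap1-deficient range for both, and the log2 fold changes of −0.60 and −0.72 became 0.014 and 0.062 without mouse 1. Psmg4 was at 24.6, 8.27 and 6.21 CPM against 6.61, 6.81 and 6.56 CPM, and Psmg3 at 10.7, 4.74 and 5.11 CPM against 5.0, 9.08 and 5.74 CPM. Psmb9 was at 131, 71.9 and 75.9 CPM against 60.3, 81.8 and 63.7 CPM, and Psmb10 at 59.8, 45.5 and 48.95 CPM against 42.1, 50.6 and 41.03 CPM. Control mouse 1 was the highest control for each of these 6 genes, and the genotypes overlapped in each. Without it the log2 fold change went from −0.997 to −0.12 for Psmg4, from −0.10 to 0.40 for Psmg3, from −0.44 to −0.11 for Psmb9 and from −0.20 to −0.088 for Psmb10.

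Control mouse 1 also weighed on Psmg1, Pomp, Psme1 and Psme2, and little on Psmg2. Psmg1 was at 52.3, 45.7 and 35.3 CPM in controls and 31.9, 31.6 and 41.1 CPM in Pdap1-deficient mice, and Psmg2 at 44.3, 48.4 and 45.3 CPM against 45.96, 39.4 and 40.3 CPM. Both overlapped. Pomp did not, at 142, 88.7 and 82.2 CPM against 81.6, 78.9 and 74.9 CPM, with a log2 fold change of −0.41 (SE 0.19, adjusted p = 0.502 in edgeR). Psme1 was at 174, 111 and 111 CPM against 111, 108 and 109 CPM, and Psme2 at 70.8, 31.4 and 40.3 CPM against 37.4, 45.2 and 33.6 CPM, both with overlapping groups. Without control mouse 1 the log2 fold change went from −0.34 to −0.21 for Psmg1, from −0.41 to −0.12 for Pomp, from −0.27 to −0.021 for Psme1 and from −0.30 to 0.11 for Psme2, while Psmg2 was at −0.13 and −0.16. In the 19S particle 16 of 17 subunits had fitted values below control, with a median of −0.18, from −0.40 (SE 0.17) for Psmc5, −0.18 without control mouse 1, to 0.11 (SE 0.14) for Psmd14.

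The next question was whether the stimulation changes the proteasome genes, which compares the LPS-BAFF-TGFβ and LPS-IL-4 cultures of the same mice. The main test took these cultures as unpaired, and the mouse as a block was an alternative. In control mice 3 of 48 members passed in edgeR, where 19.3% of all genes tested passed. Psma6 rose from 242, 245 and 237 CPM with LPS-IL-4 to 404, 323 and 371 CPM with LPS-BAFF-TGFβ, 1.52 times, with a log2 fold change of 0.60 (SE 0.10, adjusted p = 0.00379 in edgeR). Psmd14 fell from 283, 267 and 260.2 CPM to 215, 225 and 216 CPM, a log2 fold change of −0.30 (SE 0.08, adjusted p = 0.0365 in edgeR). Psme3 fell from 295, 315 and 302 CPM to 239, 246 and 248 CPM, a log2 fold change of −0.31 (SE 0.08, adjusted p = 0.0293 in edgeR). With the mouse as a block, Psma6 passed in edgeR (adjusted p = 0.018) and Psmd14 and Psme3 did not (adjusted p = 0.125 and 0.108), so that 1 member was called, and 1989 of 14882 genes.

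The deep library of control mouse 1 decided how many members were called. Without it, 24 members passed in edgeR, 3 higher and 21 lower, where 15.9% of all genes were called lower. The 21 were 9 core subunits, 5 of the 19S particle, Psmb8, Psmb10, Psme1, Psme2, Psme3, Psme4 and Pomp. In mice 2 and 3, Psmb8 was at 93.1 and 123 CPM with LPS-IL-4 and at 63.5 and 72.8 CPM with LPS-BAFF-TGFβ, whereas mouse 1 went from 84.0 to 216 CPM. With both cultures of mouse 1 left out 19 members were called and 27.4% of all genes. With the mouse as a block as well it was 29 members and 36.1% of all genes, both settings chosen after the data were seen. Leaving out any LPS-IL-4 control library or the LPS-BAFF-TGFβ library of control mouse 3 left 1 member called, higher, and leaving out that of control mouse 2 left 2, both higher, so that Psmd14 and Psme3 did not pass in any of these settings. Among all genes, 1608 to 2024 were called in the settings with 1 member, and 2603 of 15388 in the setting with 2. Psma6 passed with any 1 library left out, with log2 fold changes between 0.53 and 0.68. In 14 members the LPS-BAFF-TGFβ control libraries were all below the LPS-IL-4 ones, and 18.8% of all genes showed this.

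In Pdap1-deficient mice 2 of 48 members passed in edgeR, where 11.5% of all genes tested passed. Psma6 rose here too, from 195, 169 and 200.2 CPM to 258, 223 and 272 CPM, 1.34 times, with a log2 fold change of 0.42 (SE 0.11, adjusted p = 0.0421 in edgeR). Pomp fell from 109.9, 96.6 and 109 CPM to 81.6, 78.9 and 74.9 CPM, with a log2 fold change of −0.42 (SE 0.10, adjusted p = 0.0261 in edgeR). In 9 members the LPS-BAFF-TGFβ libraries were all lower, as in 14.1% of all genes. With the mouse as a block 12 members passed in edgeR, Psma6 higher and 11 lower, where 13.5% of all genes were called lower. The 11 were Psma2, Psma3, Psma5, Psma7, Psmb4, Psmb9, Psmb10, Psmd11, Psme1, Psme4 and Pomp. Without the block, leaving out a single library could remove both calls. No member passed without either library of mouse 1 or of mouse 3, where 908 to 1335 genes did. Without the LPS-IL-4 library of mouse 2, 5 members and 2235 of 14721 genes passed. Without its LPS-BAFF-TGFβ library, 1 member and 1377 of 15236 genes passed. The log2 fold changes stayed between 0.35 and 0.50 for Psma6 and between −0.48 and −0.38 for Pomp.

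**Figure D4:**
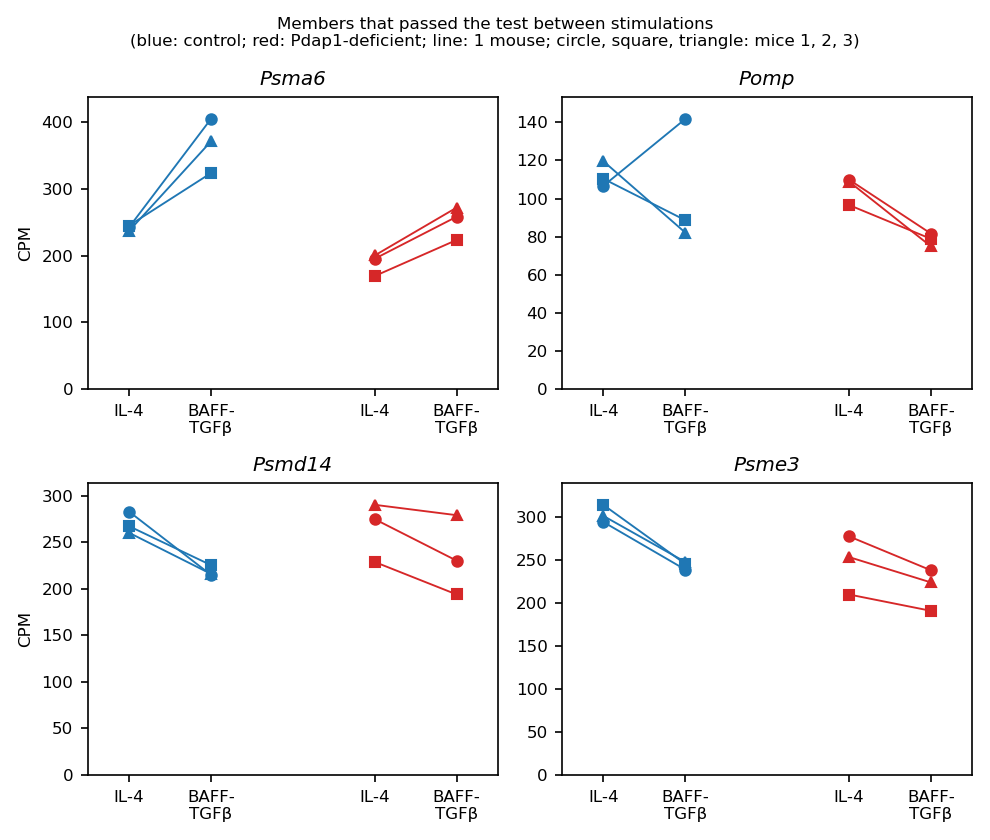
CPM of the 4 members that passed the test between stimulations in either genotype, with a line for each mouse from its LPS-IL-4 to its LPS-BAFF-TGFβ culture. Psma6 is higher with LPS-BAFF-TGFβ in 6 of 6 mice and lower in Pdap1-deficient than in control mice in each stimulation, and Pomp is lower with LPS-BAFF-TGFβ in each mouse but control mouse 1.

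Whether the genotype difference itself depends on the stimulation was tested over the 12 libraries. No gene passed this term in edgeR, 0.0% of all genes tested. At an unadjusted p under 0.05 there were 755 genes and 0 members, and DESeq2 called 6 genes and 0 members. The median term of the members was −0.05, and 0.11 without the deep library of control mouse 1, where 35 of 48 lay above 0. For Psma6 the term was −0.19 (SE 0.16, adjusted p = 0.983 in edgeR), and for Psmg2 it was 0.34 (SE 0.23). The least precise terms were those of Psme2b, Psmg4 and Psmb8, with an SE of 1.42, 0.63 and 0.59.

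Promoter windows from RefSeq (GRCm38.p6, 250 bases before to 50 after an annotated start) were matched by symbol for 43 of 51 members, in 46 windows, and searched on both strands. The ETS letters CCGGAAG were in 17 member windows (37.0%) and in 8.86% of the 32851 windows of all genes. TGACNNNGC, the core of the antioxidant response element bound by Nfe2l1 and Nfe2l2, was in 13% of member windows and 12.4% of all. The interferon-stimulated response element, searched as GAAA, any 2 bases and GAAA, was in 10.9% and 3.44%, and TTCNNNGAA, the gamma-activated site, in 6.52% and 8.3%. CCAAT was in 32.6% and 37.4%, TGATGNAA in 2.17% and 3.97%, TGACGTCA in 0.0% and 1.79%, and the NF-kB site, searched as GGG, any 2 bases and TTTCC, in 0.0% and 1.63%. TTCNNNGAA and the interferon-stimulated response element can share letters. A match describes letters and not a bound site, and no match says only that these letters are not in this window. The windows of Psmb9 and of Tap1, a peptide transporter for MHC class I, share 275 bases. Windows of 5 members are shown from 5′ to 3′ on the strand of the gene: Psma6 and Pomp as the members called between stimulations in Pdap1-deficient mice, Psmg1 as the one with the smallest adjusted p between genotypes, and Psmb5 with Psmb8 as an exchange pair. Capitals mark CCGGAAG or its reverse complement in Psma6, Pomp and Psmg1, TTCNNNGAA in Psmg1 and Psmb8, and TGACNNNGC in Psmb5. Psma6 has another annotated start upstream, whose window held no CCGGAAG and is not shown.
Psma6 (chr12:55398575-55398874, plus strand): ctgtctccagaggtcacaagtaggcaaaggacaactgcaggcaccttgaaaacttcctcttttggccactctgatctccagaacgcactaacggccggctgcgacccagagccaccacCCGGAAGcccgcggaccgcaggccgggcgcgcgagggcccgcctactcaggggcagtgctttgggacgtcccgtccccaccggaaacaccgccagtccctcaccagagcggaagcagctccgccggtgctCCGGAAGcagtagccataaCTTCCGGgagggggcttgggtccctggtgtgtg
Pomp (chr5:147860378-147860677, plus strand): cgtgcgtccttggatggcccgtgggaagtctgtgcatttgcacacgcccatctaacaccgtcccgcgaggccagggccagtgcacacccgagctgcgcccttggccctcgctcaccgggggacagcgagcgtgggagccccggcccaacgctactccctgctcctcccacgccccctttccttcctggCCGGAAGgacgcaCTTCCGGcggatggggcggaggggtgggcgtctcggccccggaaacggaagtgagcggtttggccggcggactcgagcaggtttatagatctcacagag
Psmg1 (chr16:95990911-95991210, minus strand): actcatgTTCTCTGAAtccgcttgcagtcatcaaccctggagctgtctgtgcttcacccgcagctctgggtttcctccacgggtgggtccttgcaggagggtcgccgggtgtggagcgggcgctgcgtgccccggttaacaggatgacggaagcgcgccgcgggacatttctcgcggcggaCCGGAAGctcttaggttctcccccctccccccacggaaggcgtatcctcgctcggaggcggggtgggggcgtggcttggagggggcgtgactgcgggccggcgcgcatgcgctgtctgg
Psmb5 (chr14:54617946-54618245, minus strand): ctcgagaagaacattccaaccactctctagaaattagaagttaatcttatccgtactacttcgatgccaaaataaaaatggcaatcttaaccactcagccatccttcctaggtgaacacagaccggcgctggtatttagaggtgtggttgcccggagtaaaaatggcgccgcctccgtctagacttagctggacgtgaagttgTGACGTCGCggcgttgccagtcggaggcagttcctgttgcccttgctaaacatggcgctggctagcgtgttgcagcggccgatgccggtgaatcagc
Psmb8 (chr17:34197945-34198244, plus strand): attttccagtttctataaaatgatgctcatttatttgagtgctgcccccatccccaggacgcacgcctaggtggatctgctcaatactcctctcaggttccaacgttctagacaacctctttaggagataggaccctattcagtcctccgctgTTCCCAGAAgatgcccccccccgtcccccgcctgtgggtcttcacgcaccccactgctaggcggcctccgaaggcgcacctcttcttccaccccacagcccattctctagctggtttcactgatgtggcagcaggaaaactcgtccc

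Genes that act with the proteasome but do not match the rule were taken from 5 lists. Of 7 genes that control proteasome genes, 2 rose in Pdap1-deficient cells with LPS-IL-4, where 421 of 15074 genes tested were called higher in edgeR. Nfe2l1, the factor that raises proteasome genes when proteasome activity is low, was at 106, 109 and 113 CPM in controls and 176, 169.7 and 165 CPM in Pdap1-deficient mice, a log2 fold change of 0.63 (SE 0.09, adjusted p = 0.00649 in edgeR). Ngly1, the enzyme that removes glycans from Nfe2l1 so that it becomes active, was at 46.9, 44.96 and 43.4 CPM against 59.2, 61.1 and 59.9 CPM, a log2 fold change of 0.40 (SE 0.10, adjusted p = 0.041 in edgeR). Its groups differed past the threshold without the replicate block and not with it (adjusted p = 0.116 in edgeR). With LPS-BAFF-TGFβ Nfe2l1 was at 125, 92.6 and 79.9 CPM against 168, 171 and 155 CPM. These groups did not overlap either, with a log2 fold change of 0.73 (SE 0.16, adjusted p = 0.138 in edgeR), and without control mouse 1 it was 0.93 and passed (adjusted p = 0.000551 in edgeR).

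In the other lists 0 genes passed between genotypes in edgeR, in either stimulation. They hold 7 tested proteasome-bound genes, 13 ubiquitin and shuttle genes, 10 genes of MHC class I processing and 6 interferon response factors. Of these, 3 had an unadjusted p under 0.05 in edgeR in LPS-IL-4 cultures and 1 in the others. Among all genes tested, 3582 of 15074 and 1486 of 14079 did. DESeq2 called 1 gene of these lists, the shuttle factor Ubqln4 with LPS-IL-4 (adjusted p = 0.0155), and 1229 of 13115 genes in that comparison. Between stimulations, 7 of the 10 MHC class I genes fell with LPS-BAFF-TGFβ in control mice and 7 in Pdap1-deficient mice, with median log2 fold changes of the list of −0.62 and −0.66. Of all genes tested, 9.33% and 5.89% were called lower. Tap1 went from 248, 231 and 297 CPM to 186, 154 and 161 CPM in control mice, a log2 fold change of −0.63 (SE 0.12, adjusted p = 0.00766 in edgeR). The interferon response factors Irf1, Irf7 and Stat2 fell in control mice, and in Pdap1-deficient mice Irf1 fell. Psmb9, which shares its promoter window with Tap1, had log2 fold changes of 0.09 (SE 0.27) in control mice and −0.32 (SE 0.23) in Pdap1-deficient mice. With the mouse as a block the latter passed the threshold in edgeR (adjusted p = 0.0234). The control value rested on mouse 1, where Psmb9 went from 77.9 to 131 CPM. In control mice 2 and 3 it went from 74.8 to 71.9 and from 111 to 75.9 CPM. The control value was −0.29 with both cultures of mouse 1 left out and the mouse as a block (adjusted p = 0.00739 in edgeR). That setting was chosen after the data were seen. Of the other lists, the proteasome-bound Ecpas and the ubiquitin factors Nploc4 and Ubqln4 fell in control mice, and Nfe2l2 rose.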

How the data were processed

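Per the labels and the study's methods, the authors trimmed stranded RNA-seq reads with Trim Galore 0.6.1, aligned them to GRCm38 with STAR 2.6 and counted them per gene with HTSeq 0.9.1, and deposited whole-number counts for 55536 features. The strand setting and annotation release of the counting are not given in the sources used here, and the labels name both a ribosomal RNA depletion and an mRNA kit. A deposited table of normalized values was not used. Samples were grouped by genotype and stimulation. Replicates differed by more than sampling noise (chi-square per gene of 7.07 to 87.1). Counts were tested with edgeR 4.0.16 in R 4.3.3 (filterByExpr, TMM, robust quasi-likelihood F test, Benjamini-Hochberg adjusted p under 0.05 over all genes tested), after a test on simulated data. CPM used TMM factors over all 12 libraries. Total counts per library, given in the report, set the precision, and floors of 3 counts cover counting error only. DESeq2 1.42.0, other filters, DESeq2 size factors, 1 fit over all libraries, a replicate block and leaving out each library were alternatives. Transcripts were compared with BLAST 2.17.0. P-values of the main test set a difference against the spread between mice of a group. With the mouse as a block they set it against the spread of the differences within mice. The result of 1 gene of the interferon list and the name of the Cre driver are not reported here.

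The members, classes, lists and alternatives were chosen with earlier results of these data known. Values in every library were given for Psmb5 to Psmb10, Psme1, Psme2, Pomp, Psmg1 to Psmg4 and members past the threshold, and for other members class extremes were named. Psma6, Psmd14 and Psme3 entered as members past it between stimulations. The series design gives both cultures of a mouse the same number, so the cultures of a stimulation comparison pair by animal. The main test did not use this pairing, and the mouse as a block was an alternative. Deviations from the group means correlated between cultures of 1 mouse at −0.18 to 0.62, over 0.1 in 4 of 6 mice. Between genotypes mice share a number alone, with correlations of −0.22 to 0.10.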

Additional observations from a re-analysis of the deposited data

Results flagged for a closer look

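Psmf1, which encodes an inhibitor of the 20S core, moved in opposite directions between stimulations in every mouse of each genotype. On the log2 scale, LPS-BAFF-TGFβ minus LPS-IL-4, it was at -0.127, -0.103 and -0.125 in control mice 1, 2 and 3 and at 0.156, 0.0238 and 0.0508 in Pdap1-deficient mice 1, 2 and 3. It was singled out for these signs, and by them the difference was not tested. In edgeR's quasi-likelihood test of the genotype by stimulation term the value was 0.20 (SE 0.15, adjusted p = 0.983).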

How the results depend on the processing

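Between genotypes, 0 members were called in each stimulation, and 3 were called in control and 2 in Pdap1-deficient mice between stimulations. For the genotypes with LPS-IL-4 the counts were 5 with DESeq2, 6 with no filter on low counts, 1 with at least 10 counts in every library, 1 with all 12 libraries in one fit and 0 to 7 with 1 library left out. With LPS-BAFF-TGFβ they were 1 with DESeq2, 1 with no filter and 1 with all 12 libraries. Between stimulations in control mice they were 1 at an adjusted p under 0.01, 5 with DESeq2, 5 with DESeq2 size factors, 6 with no filter, 1 with all 12 libraries, 1 with the replicate block, 1 to 24 with 1 library left out, 19 without control mouse 1 (4009 of 14629 genes) and 29 without it in the block (5281 genes). In Pdap1-deficient mice they were 0 at an adjusted p under 0.01, 1 with DESeq2 size factors, 1 with all 12 libraries, 12 with the replicate block, 3 with no filter, 0 to 5 with 1 library left out, 3 without mouse 2 and 10 without it in the block. The block changed no other count of members called, with 641 and 48 genes called between genotypes. Genes called with LPS-IL-4 numbered 741, against 1229 with DESeq2, 1694 with no filter and 69 to 1759 with 1 library left out. With at least 10 counts in every library they were 764 of 13336, and with all 12 libraries 588 of 15794. With LPS-BAFF-TGFβ 65 genes were called, against 174 with DESeq2, 257 with no filter, 133 with all 12 libraries and 19 to 116 with 1 left out. Between stimulations 2874 genes were called in control mice, and 1608 to 4858 with 1 library left out. They were 1515 at an adjusted p under 0.01, 2782 with DESeq2 and 2849 with DESeq2 size factors. With no filter they were 3038, with all 12 libraries 2868 and with the replicate block 1989. In Pdap1-deficient mice 1675 genes were called, and 908 to 2235 with 1 left out. They were 853 at an adjusted p under 0.01, 1681 with DESeq2 size factors, 2152 with no filter and 2144 with all 12 libraries. With the replicate block they were 3854, without mouse 2 they were 2398 and without it in the block 3640. The interaction gave 0 genes, 1 with no filter, 0 to 1 with 1 library left out, 6 with DESeq2 and 9 without the 3 libraries that stand apart, and 0 members under each alternative run. Settings that leave out a whole mouse or several libraries, and sex by Xist level as a covariate (0 members and 173 and 42 genes between genotypes), were chosen after the data were seen. The cause of these changes was not tested. Xist was above 100 CPM in both cultures of control mice 1 and 3 and of Pdap1-deficient mouse 1, and in no other library. Sex by this measure was thus not balanced between genotypes. With it as a covariate, 9 members and 2527 genes with LPS-IL-4 had an unadjusted p under 0.05 in edgeR, against 17 and 3582 without. With LPS-BAFF-TGFβ they were 1 and 847, against 8 and 1486. The median log2 fold changes of the members were −0.20 and −0.21 with it.

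For named genes under the alternatives, 451 values kept direction and call, 42 lost the call, 21 gained it and 10 reversed. With 1 library left out, Psmb9 with LPS-IL-4 ranged from -0.30 to 0.14 (0.11 without Pdap1-deficient mouse 1). With LPS-BAFF-TGFβ, Psmb5 ranged from -0.83 to 0.014, Psmb8 from -1.02 to 0.062, Psme2 from -0.52 to 0.11 and Psmg3 from -0.41 to 0.40 (0.06 without Pdap1-deficient mouse 1), the highest values without control mouse 1. With the LPS-BAFF-TGFβ libraries of control mouse 1 and Pdap1-deficient mouse 2 left out, Psmb5, Psmb8 and Psmg3 were at 0.065, 0.046 and 0.13.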
